A study of Mus musculus with 15 samples.

Results

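BAY-876, a small-molecule inhibitor of the glucose transporter GLUT1, was added to brown preadipocytes that received FGF8b, and the transcriptomes were compared with those of cells given FGF8b alone. The comparison rests on 6 of the 15 libraries of the study, 3 with FGF8b plus BAY-876 and 3 with FGF8b, and it covered 13869 genes of 29072 with a symbol. The preadipocytes came from 129SvEv mice and their interscapular brown fat, and were grown from the stromal-vascular fraction and immortalized with the SV40 large T antigen, a viral protein that binds p53 and RB. All groups share this background. FGF8b was given at 5.56 nM for 48 h and BAY-876 at 2 µM, and the study's design text states 1 µg/ml heparin for the FGF treatments. The labels of both FGF8b groups do not name heparin, whereas those of the FGF9 group do. A control group of 3 libraries carried no agent, and whether it received heparin is not stated. A group of 3 libraries with 5.56 nM FGF9 served only to choose genes in libraries that neither arm of the main comparison uses. No library had BAY-876 without FGF8b, so a response to the inhibitor by itself and a response that needs FGF8b cannot be told apart. The sources do not state if replicate libraries stem from independent cultures. The p-values therefore cover the spread between these libraries, and that spread may be technical.

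FGF8b is a paracrine growth factor that binds receptor tyrosine kinases at the cell surface together with heparan sulfate and switches on the ERK cascade. ERK in turn raises ETS factors and feedback inhibitors such as the Sprouty proteins and dual-specificity phosphatases. GLUT1, the product of Slc2a1, carries glucose into most cells. Cells read incoming glucose partly through the transcription factor MondoA and its partner MLX, which turn on Txnip and Arrdc4, and the proteins made from these genes hold back glucose uptake. Brown preadipocytes are the precursors of thermogenic fat cells, whose hallmark is UCP1, the mitochondrial protein that releases respiratory energy as heat.

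The libraries held 27.0 to 42.6 M reads each (M, mega), as inferred from the smallest steps of the deposited values, with 29.6 to 42.6 M reads for FGF8b plus BAY-876 and 28.3 to 35.7 M reads for FGF8b. Levels are RPKM, reads scaled to transcript length and library depth, so they can be set side by side between genes. Correlations across genes were 0.9913 to 0.9967 between libraries of a group and 0.9592 to 0.9663 between FGF8b and FGF8b plus BAY-876 libraries. The cells kept markers of mesenchymal progenitors at a summed 555 to 576 RPKM over 14 genes with BAY-876, against 865 to 920 RPKM with FGF8b. In the control libraries that sum was 2040 to 2240 RPKM. Markers of other lineages were low. Endothelial markers summed to 1.95 to 2.25 RPKM with BAY-876 and 0.475 to 0.746 RPKM with FGF8b, with Emcn and Cldn5 at 0 in the former, and to 7.71 to 8.98 RPKM in control. Markers of mature fat cells summed to 10.2 to 10.9 RPKM with BAY-876, 11.7 to 13.7 RPKM with FGF8b and 8.14 to 9.30 RPKM in control. Macrophage markers summed to 7.58 to 9.28 against 5.51 to 6.30 RPKM, with C1qa and Tyrobp at 0 in both groups. Mural markers summed to 5.52 to 6.60 against 5.46 to 6.83 RPKM, Schwann and neural markers to 4.59 to 5.28 against 4.11 to 4.48 RPKM, and skeletal muscle markers to 5.60 to 7.45 against 4.30 to 6.19 RPKM, with Myf5, Myod1 and Myog at 0 in both. The part of these markers in the results was not tested. In bulk RNA, fewer cells of a type and less RNA per cell cannot be told apart.

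Adding BAY-876 to FGF8b left little of the Txnip, Lum and Ucp1 RNA. The addition raised genes of sterol synthesis and protein folding and most listed p53 target genes, and lowered genes of the extracellular matrix. It moved some of the FGF8b response further from control and pulled other parts back. Of the 13869 genes, 7941 (57.3%) passed the test, with 3117 higher (22.5%) and 4824 lower (34.8%) than with FGF8b alone. The test was limma on log2(RPKM + 0.5) with Benjamini-Hochberg adjustment and a threshold of 0.05, and a gene is called higher or lower below only if it passed it. The median change over all genes was -0.08 on the log2 scale. With trimmed-mean scaling of the libraries that median was 0.01 and the split became 4048 higher against 3885 lower. A change of at least 1 on the log2 scale was seen for 421 higher (3.04%) and 533 lower genes (3.84%), and the 2 groups of libraries did not overlap for 8691 genes (62.7%). Log2 changes are on the log2(RPKM + 0.5) scale, which understates the change of genes at low level, and the error given with each is the standard error of the fit.

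The gene with the largest log2 change was Txnip, which encodes the thioredoxin-interacting protein that restrains glucose uptake. Txnip stood at 112, 100.3 and 116 RPKM in the control libraries and 104, 94.4 and 102 RPKM with FGF8b, and at 0.831, 0.639 and 0.695 RPKM with FGF8b plus BAY-876. Txnip was not called in FGF8b against control, and the inhibitor libraries lay far below all control and FGF8b libraries (log2 change -6.37 ± 0.07, adjusted p = 4.7e-18). In whole reads the 3 FGF8b libraries held 26587 Txnip reads and the 3 inhibitor libraries 222. The depth-adjusted ratio was 137 (95% interval 120 to 158, counting error only). By this ratio Lum (424, interval 231 to 886) fell more than Txnip. Ccl11 had a ratio of 174 with 5 reads in the inhibitor libraries. Its interval of 74.1 to 537 contains that of Txnip, so these 2 cannot be ranked. Arrdc4, its arrestin-domain relative, read 10.9, 8.32 and 9.54 RPKM with FGF8b and 0.568, 1.58 and 0.833 RPKM with BAY-876, again without overlap (log2 change -2.80 ± 0.17, adjusted p = 2.8e-09). Arrdc3, another arrestin-domain gene, went from 12.5, 14.7 and 15.7 to 4.44, 4.69 and 4.56 RPKM (log2 change -1.54 ± 0.11, adjusted p = 8.1e-09), and the MLX-partner gene Mxd4 from 8.81, 8.01 and 8.44 to 3.37, 4.82 and 3.97 RPKM (log2 change -0.98 ± 0.13, adjusted p = 1.4e-05). In the list of glucose-sensing genes, 5 of 9 tested members were lower, 1 was higher and 3 were not called, with a median of -0.36. The 1 higher member was Mlx at 0.37, and 2 members were higher with trimmed-mean or median scaling or without FGF8b replicate 3. The sensor gene Mlxip, which encodes MondoA, stood at 5.51, 5.14 and 5.83 RPKM with FGF8b and 5.18, 5.14 and 5.76 RPKM with BAY-876 (not called, adjusted p = 0.72).

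The promoters of Txnip and Arrdc4 are shown because these genes fell together and are known targets of MondoA and MLX, which bind pairs of CACGNG boxes. Sequences are from RefSeq on GRCm38.p6 and cover the 250 bases before the annotated start, at chr3:96557707-96557956 on the plus strand for Txnip and chr7:68749239-68749488 on the minus strand for Arrdc4. Capitals mark a pair of CACGNG boxes with 5 bases between them in Txnip and the E-box CACGTG in Arrdc4.
Txnip: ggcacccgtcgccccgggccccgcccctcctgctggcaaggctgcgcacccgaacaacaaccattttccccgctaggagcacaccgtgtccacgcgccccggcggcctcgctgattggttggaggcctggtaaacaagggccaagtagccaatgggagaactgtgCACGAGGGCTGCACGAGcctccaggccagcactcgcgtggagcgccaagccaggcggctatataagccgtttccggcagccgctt
Arrdc4: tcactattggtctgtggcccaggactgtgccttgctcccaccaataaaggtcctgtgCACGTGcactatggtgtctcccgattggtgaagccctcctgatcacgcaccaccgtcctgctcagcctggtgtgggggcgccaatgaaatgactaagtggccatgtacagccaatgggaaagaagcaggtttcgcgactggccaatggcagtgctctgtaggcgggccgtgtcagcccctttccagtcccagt
The pair lay at -85 to -69 from the Txnip start, and both strands of the promoters of 27025 genes held such a pair in 14 of them (0.0518%). The Arrdc4 E-box lay at -193 to -188, and 1854 genes (6.86%) held 1 in the same window. Among the 8 glucose-sensing genes with a promoter in the table, only Txnip held the pair, and Arrdc4, Mlx, Mlxipl and Mxd4 held the single E-box. A match of letters describes the sequence and does not show binding.

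**Figure D1:**
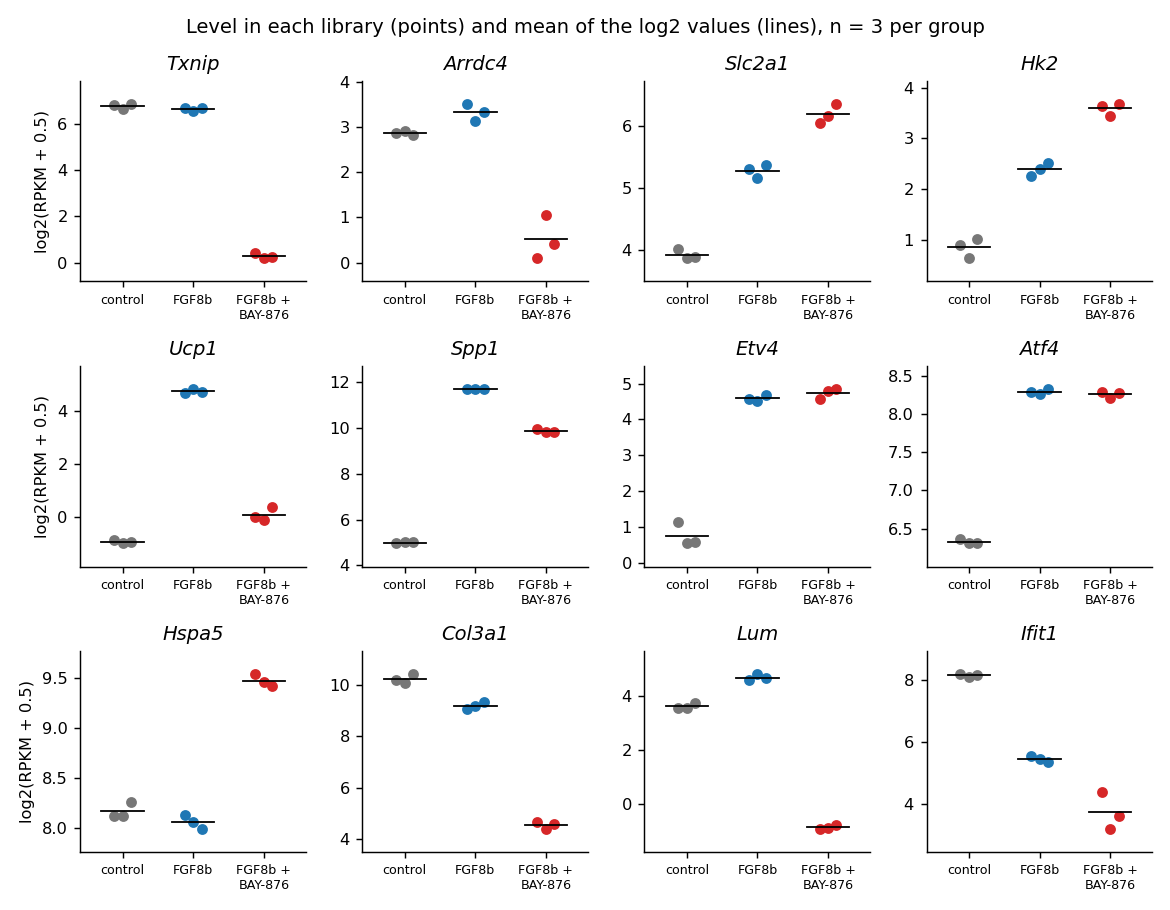
Level of 12 genes as log2(RPKM + 0.5) in the control, FGF8b and FGF8b plus BAY-876 libraries, each point 1 library and each line the mean of 3. With the inhibitor, Txnip, Arrdc4, Ucp1, Spp1, Col3a1, Lum and Ifit1 lie below FGF8b, Slc2a1, Hk2 and Hspa5 above it, and Etv4 and Atf4 overlap it.

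Genes of hexose transport did not move together. Slc2a1, which encodes the transporter that BAY-876 blocks, had already risen with FGF8b from 15.6, 14 and 14.2 to 39, 35.1 and 41.1 RPKM and rose again to 66.2, 71.2 and 81.6 RPKM with the inhibitor (log2 change 0.92 ± 0.10, adjusted p = 1.1e-06). Slc5a3, a sodium-coupled myo-inositol carrier, read 5.91, 6.59 and 6.64 RPKM with FGF8b and 27, 26.1 and 26.9 RPKM with BAY-876 (log2 change 1.98 ± 0.07, adjusted p = 6.9e-12). Slc2a6 was higher by 1.49 on the log2 scale, while Slc2a3, which encodes GLUT3, was lower by 0.52, and Slc2a8, Slc2a12 and Slc50a1 were lower by 0.54, 0.40 and 0.47. In all, 3 of 8 tested members were higher and 4 lower (median -0.32), beside 22.5% higher and 34.8% lower over all genes. Slc2a4, the insulin-responsive transporter, stayed under the filter at a mean of 0.210 RPKM with FGF8b and 0.183 RPKM with BAY-876.

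More glycolytic enzyme genes were higher than lower in the fit on all libraries. Of 21 tested, 10 were higher, 3 lower and 8 not called, with a median of 0.19, and 15 were higher than in the control libraries, a comparison in which 10083 of all genes were called (72.7%) and 5106 were higher (36.8%). Hk2, the inducible hexokinase, read 1.37, 1.06 and 1.52 RPKM in control, 4.29, 4.8 and 5.22 RPKM with FGF8b and 12, 10.4 and 12.3 RPKM with the inhibitor, 3 levels without overlap (log2 change 1.20 ± 0.11, adjusted p = 1.4e-07). Eno1, an enolase with near-identical copies that make its reads uncertain, rose from 205, 251 and 291 to 443, 437 and 469 RPKM (log2 change 0.87 ± 0.11, adjusted p = 4.7e-06), and the regulatory kinase Pfkfb3 from 2.74, 2.36 and 2.52 to 5.09, 4.38 and 5.51 RPKM (log2 change 0.85 ± 0.10, adjusted p = 4.1e-06). The lower enzymes were Pfkm (-0.55), Ldhb (-0.30) and Pgk1 (-0.23), while Ldha, the main lactate dehydrogenase subunit, was not called at 0.14. With trimmed-mean scaling 12 were higher and 2 lower. These counts depended on single libraries: without FGF8b replicate 1 there were 6 higher and 6 lower, and without FGF8b plus BAY-876 replicate 3 there were 6 higher. In the pentose phosphate, hexosamine and glycogen list 7 of 19 were higher and 3 lower (median 0.05). Of all genes, 22.5% were higher and 34.8% lower than with FGF8b alone. Pgd, which makes NADPH in the pentose phosphate pathway, rose from 24.8, 25.4 and 27.1 to 63.5, 67.9 and 72.2 RPKM (log2 change 1.38 ± 0.07, adjusted p = 4.9e-10), and Taldo1, the transaldolase, by 1.05.

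Genes that decide the fate of pyruvate and lactate split evenly, with 6 of 17 higher and 6 lower and a median of -0.03 that became 0.07 with trimmed-mean scaling. The shares over all genes were 22.5% higher and 34.8% lower. Pdp2, a phosphatase that activates pyruvate dehydrogenase, was higher by 1.19 and Pcx, pyruvate carboxylase, by 0.78. The other listed phosphatase gene, Pdp1, was not called (0.06). It read 39.4, 39.9 and 44.7 RPKM in control, 8.39, 9.79 and 9.23 RPKM with FGF8b and 10.2, 9.64 and 8.86 RPKM with BAY-876. The inhibitory kinase genes Pdk1, Pdk2, Pdk3 and Pdk4 were lower by 0.50, 0.51, 0.54 and 0.27. Pck2, mitochondrial phosphoenolpyruvate carboxykinase, read 31.6, 27.9 and 26.5 RPKM in control, 100.5, 95 and 103 RPKM with FGF8b and 48.4, 52.3 and 57.1 RPKM with BAY-876, so its FGF8b rise was cut but not ended (log2 change -0.92 ± 0.09, adjusted p = 8.5e-07). The lactate carrier Slc16a3 was not called (0.10).

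To follow the FGF8b response itself, genes called in FGF8b against control (8931 genes, 64.4%) with a log2 change of at least 1 were sorted by what BAY-876 did to them. Of those calls 5238 were higher (37.8%) and 3693 lower (26.6%). There were 676 rises (4.87% of genes tested) and 1115 falls (8.04%). A change was counted as enlarged or kept when BAY-876 moved the gene further in the FGF8b direction or did not move it by the test. It was counted as partly lost, lost or overturned when BAY-876 moved it back and it was still called against control in the FGF8b direction, no longer called, or called in the other direction. Of the 676 rises, 205 (30.3%) were enlarged, 192 (28.4%) kept, 220 (32.5%) partly lost, 42 (6.21%) lost and 17 (2.51%) overturned. Of the 1115 falls, 524 (47.0%) were enlarged, 366 (32.8%) kept, 177 (15.9%) partly lost, 31 (2.78%) lost and 17 (1.52%) overturned. These shares stand beside 22.5% higher and 34.8% lower over all genes in FGF8b plus BAY-876 against FGF8b. That tilt favours enlarged falls over enlarged rises, and trimmed-mean scaling removed it (4048 higher, 3885 lower). The sorting and the comparison share the FGF8b libraries, and both comparisons with control share the control libraries, so these counts are descriptions. The sizes of the smallest classes depended on the treatment of low values: 73 lost changes became 131 with a pseudocount of 0.1, 41 with a pseudocount of 1 and 149 with voom on recovered reads, and 34 overturned changes became 54 and 60 with the first and the last of these.

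**Figure D2:**
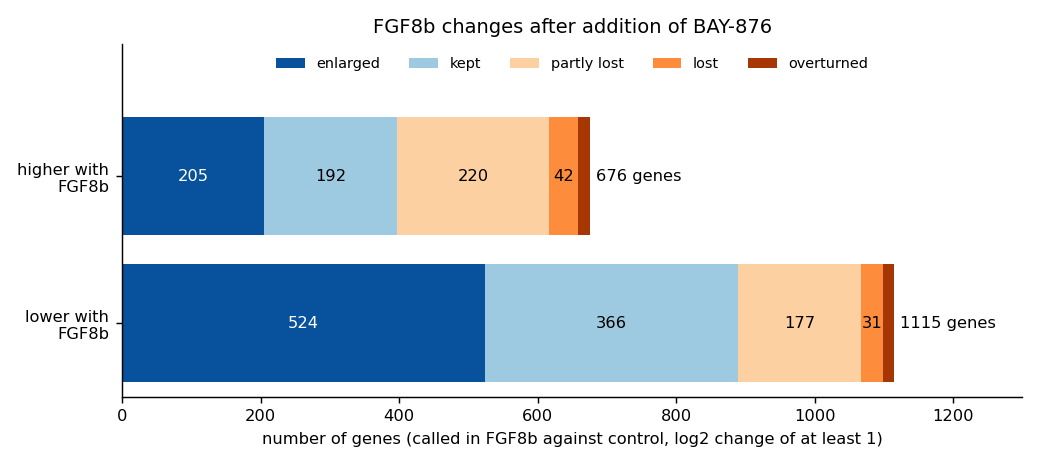
Number of genes that rose or fell with FGF8b against control (adjusted p under 0.05 and a log2 change of at least 1), split by their fate after addition of BAY-876. Enlarged, kept and partly lost changes number 205, 192 and 220 of 676 rises and 524, 366 and 177 of 1115 falls, and the ends of both bars are 17 overturned genes each.

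Among enlarged rises the 4 largest FGF8b changes were Cth, Car6, Hmga2 and Slc7a3. Car6, a secreted carbonic anhydrase, read 0.63, 0.609 and 0.33 RPKM in control, 19.6, 13.1 and 10.9 RPKM with FGF8b and 69.6, 71.5 and 65.7 RPKM with BAY-876 (log2 change 2.25 ± 0.21, adjusted p = 2.1e-07). Cth, the cystathionine lyase that makes cysteine, rose further by 0.32, Hmga2, a chromatin architectural factor, by 0.56 and Slc7a3, a cationic amino acid carrier, by 0.87. Among enlarged falls the largest were Ogn, Igf1, Apod and Tgtp2. Ogn, a small leucine-rich proteoglycan, went from 369, 428 and 454 RPKM in control to 4.93, 5.4 and 4.55 RPKM with FGF8b and 0.585, 0.596 and 0.627 RPKM with BAY-876 (log2 change -2.31 ± 0.09, adjusted p = 1.8e-11). Igf1 fell from 1.58, 1.94 and 3.04 to 0.416, 0.363 and 0.144 RPKM (log2 change -1.71 ± 0.16, adjusted p = 2.9e-07), the lipocalin gene Apod by a further 2.27 and the interferon-induced GTPase Tgtp2 by 1.5. In each of these the 3 groups of libraries lay apart and in the same order. Tgtp2 has a near-identical copy, so its share of reads is uncertain.

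Kept rises included genes of the ERK and stress arms. Etv4, an ETS factor that ERK induces, read 1.7, 0.962 and 1.01 RPKM in control, 23.2, 22.5 and 25 RPKM with FGF8b and 23.4, 27.1 and 28.1 RPKM with BAY-876, with the last 2 groups overlapping (log2 change 0.15 ± 0.13, adjusted p = 0.34, not called). Chac1, which degrades glutathione, read 1.25, 1.02 and 0.773 RPKM in control, 25.2, 21.4 and 22.7 RPKM with FGF8b and 23.2, 27.3 and 26.8 RPKM with BAY-876 (log2 change 0.15 ± 0.13, adjusted p = 0.32, not called). Prkg2, a cyclic GMP-dependent kinase, differed by -0.10 and Arhgap22, a RAC regulator, by -0.35, neither passing the test. A fit on the compared groups alone called Arhgap22 lower, and summing transcripts called Prkg2 lower by 0.23 on the log2 scale. Kept falls included Clec3b, Mest, Lox and Trim30a. Clec3b, which encodes tetranectin, held 42.3, 32.7 and 35.1 RPKM in control and 3 reads over the FGF8b libraries against 0 over the inhibitor libraries, so no further fall could be seen at this depth. The imprinted gene Mest read 0.729, 0.782 and 0.505 RPKM with FGF8b and 0.773, 0.658 and 0.929 RPKM with BAY-876 after 48, 47.7 and 47.4 RPKM in control. Lox, the collagen cross-linking oxidase, read 31.1, 33.9 and 44.2 RPKM with FGF8b against 29.7, 34.9 and 29.8 RPKM with BAY-876 (adjusted p = 0.11), but it was called lower by 0.27 without FGF8b plus BAY-876 replicate 2 and by 0.30 without FGF8b replicate 1. Trim30a was not called at -0.31, and it was called lower by 0.57 without FGF8b plus BAY-876 replicate 1.

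Ucp1 and Spp1, the genes with the largest FGF8b rises among those partly lost, fell back by very different extents. Ucp1 was near 0 in the control libraries (0.0464, 0 and 0.0216 RPKM), reached 25.7, 28.1 and 26.2 RPKM with FGF8b and fell to 0.504, 0.438 and 0.797 RPKM with BAY-876 (log2 change -4.67 ± 0.11, adjusted p = 4.8e-14). In reads, 3146 with FGF8b stood against 81 with the inhibitor, a depth-adjusted ratio of 44.6 (95% interval 35.8 to 56.3), and 3 reads over the control libraries put the inhibitor group 25.7-fold above control (interval 8.5 to 127). Spp1, which encodes osteopontin, stood at 30.5, 31.5 and 31.8 RPKM in control, 3308, 3306 and 3289.6 RPKM with FGF8b and 1002, 896 and 919 RPKM with BAY-876 (log2 change -1.81 ± 0.06, adjusted p = 9.9e-13). Its log2 change from control was 6.70 with FGF8b and 4.88 with BAY-876. In RPKM, most of the Spp1 RNA gained with FGF8b was gone, with a mean of 3301 with FGF8b and 939 with BAY-876. Il33, an alarmin cytokine, read 84, 87.9 and 83.1 RPKM with FGF8b against 28, 21.5 and 25.5 RPKM with BAY-876 (log2 change -1.75 ± 0.12, adjusted p = 6.9e-09) and the membrane-bound semaphorin Sema7a 42.6, 49.1 and 57.8 RPKM with FGF8b against 22.5, 20.6 and 23.9 RPKM with BAY-876 (log2 change -1.13 ± 0.11, adjusted p = 3.3e-07). For all 4 genes the inhibitor libraries lay between those of control and FGF8b. Partly lost falls followed the same pattern upward. Igfbp3, an insulin-like growth factor binding protein, had 268, 247 and 285 RPKM in control, 1.09, 1.12 and 1.77 RPKM with FGF8b and 4.36, 3.84 and 4.37 RPKM with the inhibitor (log2 change 1.38 ± 0.11, adjusted p = 3.9e-08). Gas6, the ligand of TAM receptors, recovered by 0.82, Ddit4l, an mTOR inhibitor, by 1.95 and Sulf2, which trims heparan sulfate, by 2.67, from 1.06, 0.971 and 1.11 to 8.79, 10.4 and 9.01 RPKM.

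A smaller set of FGF8b changes was no longer called against control once BAY-876 was added. Acpp, a prostatic-type acid phosphatase, read 0.0716, 0.158 and 0.2 RPKM in control, 3.13, 2.94 and 5.16 RPKM with FGF8b and 0.135, 0.197 and 0.137 RPKM with BAY-876 (log2 change -2.66 ± 0.18, adjusted p = 9.4e-09). Rbfox1, a splicing regulator, held 266 reads with FGF8b and 3 with the inhibitor (depth-adjusted ratio 102, interval 34.4 to 497), and the T-box factor gene Tbx2 held 459 and 39 (ratio 13.5, interval 9.73 to 19.2). Sh3gl3, an endophilin, read 5.31, 5.83 and 6.67 with FGF8b and 1.21, 0.947 and 1.13 RPKM with BAY-876 (log2 change -2.01 ± 0.11, adjusted p = 7.5e-10), against 0.783, 0.821 and 0.953 RPKM in control. Among lost falls, Qpct, glutaminyl cyclase, read 25.1, 22.4 and 25.4 RPKM in control, 8.68, 7.7 and 6.65 RPKM with FGF8b and 20.7, 20.7 and 21.6 RPKM with the inhibitor (log2 change 1.40 ± 0.10, adjusted p = 2.0e-08). Gsta4, a glutathione transferase, read 27, 29.5 and 26.1 RPKM in control, 8.15, 9.64 and 9.58 RPKM with FGF8b and 28.1, 36.6 and 28.6 RPKM with BAY-876 (log2 change 1.71 ± 0.10, adjusted p = 2.0e-09), the unconventional myosin Myo10 recovered by 1.40 and the scramblase-family gene Ano3 by 1.80. Not being called against control does not show equality with it.

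In overturned changes BAY-876 carried the gene past its control level. Pi16, a marker of fascial progenitors, read 0.892, 0.761 and 0.783 RPKM in control, 5.4, 5.6 and 6.58 RPKM with FGF8b and 0.253, 0.361 and 0.303 RPKM with BAY-876 (log2 change -2.98 ± 0.12, adjusted p = 2.2e-11). The chemokine gene Cxcl14 read 4.86, 4.16 and 4.4 RPKM in control, 15.7, 16 and 19.9 RPKM with FGF8b and 1.8, 2.17 and 1.96 RPKM with BAY-876 (log2 change -2.83 ± 0.10, adjusted p = 4.0e-12). Slc5a7, the choline carrier, held 1578 reads with FGF8b and 20 with the inhibitor (ratio 90.6, interval 58.4 to 149), and Agtr2, an angiotensin receptor gene, 870 and 15 (ratio 66.6, interval 40.1 to 119). In the other direction Klf4, a Kruppel-like factor, read 15.8, 12.4 and 13.7 RPKM in control, 4.19, 2.84 and 3.95 RPKM with FGF8b and 16.7, 20.5 and 21 RPKM with the inhibitor (log2 change 2.27 ± 0.15, adjusted p = 5.1e-09). Nrp2, a semaphorin and VEGF coreceptor, read 3.89, 4.1 and 4.43 RPKM in control, 1.19, 1.03 and 1.08 RPKM with FGF8b and 10.9, 10.7 and 11.1 RPKM with BAY-876 (log2 change 2.83 ± 0.08, adjusted p = 7.7e-13), and Elmo1, an engulfment adaptor, rose by 3.01 and Trp53inp1, a p53-induced gene, by 1.95.

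Genes were also chosen in FGF9 against control, which shares no library with FGF8b plus BAY-876 against FGF8b. That comparison called 9108 genes (65.7%), with 778 rises (5.61%) and 1164 falls (8.39%) of at least 1 on the log2 scale. Of the 778 rises, 258 (33.2%) were higher with BAY-876 than with FGF8b alone, 288 (37.0%) were lower and 232 (29.8%) were not called, with a median of -0.04. Of the 1164 falls, 556 (47.8%) were lower still with BAY-876, 223 (19.2%) were higher and 385 (33.1%) not called, with a median of -0.26. Over all genes these shares were 22.5% higher and 34.8% lower, so the falls went further down in a larger share than all genes, and the rises were both higher and lower in somewhat larger shares. No test of these shares was made.

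**Figure D3:**
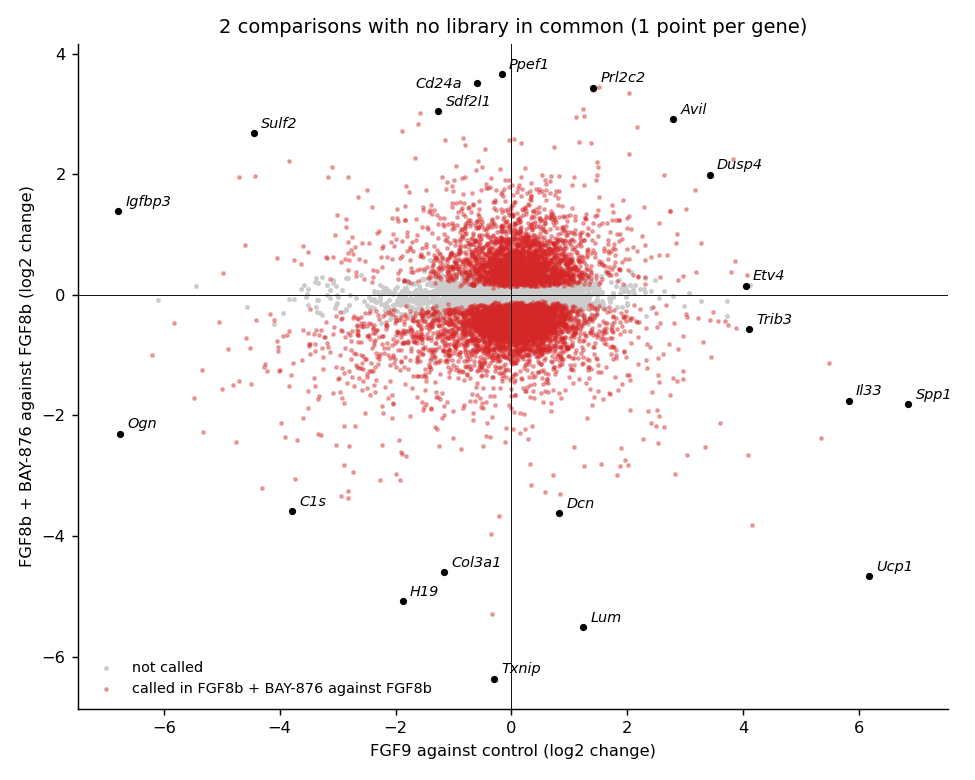
Log2 change of each of 13869 genes in FGF9 against control (x axis) and in FGF8b plus BAY-876 against FGF8b (y axis), coloured by whether the second passed the test. Spp1, Ucp1 and Il33 lie at lower right, Ogn and C1s at lower left, Igfbp3 and Sulf2 at upper left, and Txnip is the lowest point on the y axis, at -0.30 on the x axis.

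The ERK feedback genes did not respond as a block. Of 26 tested, 11 were higher, 11 lower and 4 not called, with a median of 0.15, and 17 were higher than in control with both agents against 14 with FGF8b. Dusp6, a phosphatase that resets ERK, read 1.45, 1.23 and 1.35 RPKM in control, 18.1, 18.5 and 19.3 RPKM with FGF8b and 11.8, 12.8 and 13.1 RPKM with BAY-876 (log2 change -0.55 ± 0.09, adjusted p = 6.3e-05), and Spry4, a Sprouty inhibitor, read 5.81, 6.1 and 6.5 RPKM with FGF8b against 4.25, 4.03 and 4.21 RPKM with BAY-876 (log2 change -0.51 ± 0.08, adjusted p = 3.5e-05). Against control both were still higher with BAY-876, by 2.82 and 2.46 on the log2 scale. Etv5 was not called, at 31.6, 29.6 and 33.5 RPKM with FGF8b against 28.8, 28.5 and 30.4 RPKM with BAY-876, whereas the related ETS gene Etv1 fell from 6.73, 8.62 and 8.32 to 2.53, 1.79 and 2.43 RPKM (log2 change -1.61 ± 0.14, adjusted p = 1.4e-07). Dusp4, a nuclear ERK phosphatase, rose from 12.9, 11.8 and 11.7 to 53.4, 46 and 49.6 RPKM (log2 change 1.99 ± 0.09, adjusted p = 1.3e-10), the AP-1 subunit gene Fosl1 from 7.94, 7.16 and 9.06 to 36.2, 45.3 and 46.8 RPKM (log2 change 2.34 ± 0.11, adjusted p = 1.6e-10) and Dusp5 by 1.75. Spry1 and Spry2 were lower by 1.15 and 0.92, and the cyclin gene Ccnd1 was higher by 1.20. Among receptors and heparan sulfate carriers 2 of 11 were higher and 5 lower, with a median of -0.18. Over all genes 22.5% were higher and 34.8% lower. Fgfr1, an FGF receptor gene, read 69.7, 62.3 and 72.4 RPKM with FGF8b against 91.7, 94.3 and 98.1 RPKM with BAY-876 (log2 change 0.47 ± 0.07, adjusted p = 4.4e-05), and Fgfr2 was higher by 0.54 (adjusted p = 0.03) but lost the call without 4 of the 6 libraries, with no filter and in a fit on the compared groups alone. Summing transcripts left 3 lower members. The core protein genes Sdc2 and Gpc4 fell by 1.58 and 1.44.

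Genes of the ATF4 program stayed above control, while genes of protein folding in the endoplasmic reticulum rose. ATF4 is the transcription factor that cells use to meet amino acid shortage and related stresses, and FGF8b had raised all 33 tested genes of its list. With BAY-876 all 33 were still called higher than control, and against FGF8b 9 were higher, 14 lower and 10 not called. Their median was -0.03, and 0.06 with trimmed-mean scaling. The shares over all genes against FGF8b were 22.5% higher and 34.8% lower. Atf4 itself read 81.6, 78.6 and 78.9 RPKM in control, 312, 307 and 319.7 RPKM with FGF8b and 313, 296 and 309 RPKM with BAY-876, the last 2 groups overlapping (log2 change -0.03 ± 0.04, adjusted p = 0.52, not called). Ddit3, which encodes CHOP, read 222, 184 and 170.2 RPKM with FGF8b against 197, 212 and 208 RPKM with BAY-876 (log2 change 0.10 ± 0.08, adjusted p = 0.27, not called), and it was called higher by 0.20 with trimmed-mean scaling and by 0.21 without FGF8b replicate 1. Asns, asparagine synthetase, fell from 160.4, 156 and 160.5 to 129.5, 116 and 119.5 RPKM against 16.8, 16.2 and 18.1 RPKM in control (log2 change -0.39 ± 0.06, adjusted p = 1.1e-04), and the pseudokinase gene Trib3 from 61.9, 52.6 and 55 to 34.5, 38.1 and 41.1 RPKM (log2 change -0.57 ± 0.09, adjusted p = 9.6e-05). Fgf21, a stress hormone, fell from 3.05, 1.98 and 2.43 to 0.343, 0.143 and 0.396 RPKM (log2 change -1.91 ± 0.18, adjusted p = 2.5e-07). Control libraries held 0.181, 0.0668 and 0.0281 RPKM and overlapped the inhibitor libraries, so its call against control was borderline (log2 change 0.42, adjusted p = 0.045). Higher members included Stc2, a secreted glycoprotein gene (1.30), Wars, tryptophanyl-tRNA synthetase (0.89) and Slc7a11, the cystine carrier (0.69).

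Of 24 genes of the unfolded protein response, 20 were higher, 1 was lower and 3 were not called, with a median of 0.76, whereas FGF8b alone had given 9 higher and 5 lower with a median of 0.04. Adding BAY-876 gave 22.5% higher and 34.8% lower over all genes. FGF8b against control gave 37.8% higher and 26.6% lower, near the list's FGF8b counts. Hspa5, which encodes the chaperone BiP, read 279, 278 and 306 RPKM in control, 280.1, 267 and 255 RPKM with FGF8b and 740.5, 704 and 682 RPKM with the inhibitor (log2 change 1.41 ± 0.07, adjusted p = 4.2e-10). Control and FGF8b libraries overlapped for Hspa5 and the inhibitor libraries stood above both. Sdf2l1, a BiP cofactor, had 3.39, 2.53 and 2.94 RPKM with FGF8b and 25.7, 30.1 and 27.9 RPKM with BAY-876 (log2 change 3.05 ± 0.10, adjusted p = 2.8e-12), Calr, calreticulin, had 269, 272 and 285 RPKM with FGF8b against 815, 764 and 794 RPKM with BAY-876 (log2 change 1.52 ± 0.05, adjusted p = 3.0e-12), and Hyou1 and Manf rose by 1.72 and 1.63. The 1 lower member was Ero1l, an oxidase that FGF8b had raised, at -0.20, and it was not among the lower genes with trimmed-mean or median scaling.

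The promoters of Asns and Hspa5 contrast these programs. Both windows are the 250 bases before the RefSeq start on GRCm38.p6, at chr6:7693210-7693459 on the minus strand for Asns and chr2:34771840-34772089 on the plus strand for Hspa5. Capitals mark the C/EBP-ATF element TGATGNAA, which ATF4 dimers bind, in Asns, and the ER stress element, CCAAT and CCACG with 9 bases between them, known for ATF6, in Hspa5. The Hspa5 element was chosen after its values were seen.
Asns: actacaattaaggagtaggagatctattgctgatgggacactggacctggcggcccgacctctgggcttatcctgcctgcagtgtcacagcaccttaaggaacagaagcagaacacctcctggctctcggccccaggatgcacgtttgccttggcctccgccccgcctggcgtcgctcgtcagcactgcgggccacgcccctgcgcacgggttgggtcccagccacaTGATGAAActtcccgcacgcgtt
Hspa5: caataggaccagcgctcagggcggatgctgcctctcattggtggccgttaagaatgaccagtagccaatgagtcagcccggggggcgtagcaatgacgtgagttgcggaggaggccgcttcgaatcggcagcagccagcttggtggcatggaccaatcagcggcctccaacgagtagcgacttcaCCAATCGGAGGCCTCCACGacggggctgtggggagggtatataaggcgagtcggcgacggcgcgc
The Asns element lay at -23 to -16 and the Hspa5 element at -65 to -47. On both strands, TGATGNAA was in the windows of 8 of 26 ATF4-list genes (30.8%), of 1 of 19 unfolded protein response genes (5.26%) and of 1056 of 27025 genes in all (3.91%). The ER stress element was in 0 of 26, 7 of 19 (36.8%) and 35 of 27025 (0.13%) respectively. The 7 genes were Calr, Canx, Creld2, Dnajc3, Hsp90b1, Hspa5 and Pdia6. They were higher with BAY-876 by 1.52, 0.51, 1.32, 0.65, 0.82, 1.41 and 0.96 in that order. Of the 24 tested list genes 20 were higher and 1 lower, and Sdf2l1, whose window lacked the element, was higher by 3.05. A link between the element and the rises was not tested. The windows of Atf4, Ddit3, Trib3 and Sdf2l1 held none of the 4 motifs, which says only that these letters were not found there.

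Sterol and fatty acid synthesis, which FGF8b had lowered, turned upward. FGF8b alone gave 1 higher and 21 lower of 28 genes (median -0.63), and adding BAY-876 gave 26 higher, 0 lower and 2 not called (median 0.95). Mvd, which makes isopentenyl diphosphate, read 19.8, 17.3 and 15.1 RPKM in control, 8.92, 8.26 and 9.53 RPKM with FGF8b and 32.9, 30.5 and 41.8 RPKM with BAY-876 (log2 change 1.91 ± 0.14, adjusted p = 2.4e-08). Lss, lanosterol synthase, read 17.3, 15.3 and 14.6 RPKM in control, 11.6, 12.9 and 13.7 RPKM with FGF8b and 48.8, 36.2 and 51.9 RPKM with BAY-876 (log2 change 1.79 ± 0.12, adjusted p = 5.4e-09), so the inhibitor libraries lay above control for both. Fasn, the fatty acid synthase, rose from 16.6, 17 and 20.2 to 60.9, 57.7 and 78.8 RPKM (log2 change 1.84 ± 0.14, adjusted p = 2.9e-08), and Insig1, which holds SREBP back in the endoplasmic reticulum, by 1.40. Against control, 17 of the 28 were higher and 3 lower. The 2 members not called were Srebf2, the master regulator of sterol genes (0.06), and the desaturase gene Fads1 (-0.04).

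Antioxidant genes and most listed p53 target genes rose as well. Of 19 glutathione and NRF2 genes, 18 were higher, 0 lower and 1 not called, with a median of 0.56, and FGF8b alone had given 7 higher and 6 lower. The shares over all genes were 22.5% higher and 34.8% lower with BAY-876 added. They were 37.8% higher and 26.6% lower in FGF8b against control, near the list's FGF8b counts. Srxn1, sulfiredoxin, read 18.1, 18.4 and 17.6 RPKM with FGF8b and 81.4, 75.8 and 80.9 RPKM with BAY-876 (log2 change 2.11 ± 0.05, adjusted p = 4.8e-14), Gclc, which starts glutathione synthesis, 12, 11.7 and 11.3 RPKM with FGF8b against 35.9, 34.6 and 37.5 RPKM with BAY-876 (log2 change 1.58 ± 0.06, adjusted p = 1.6e-11), and Nqo1, a quinone reductase, 15.2, 15.4 and 17.6 RPKM with FGF8b against 42.9, 45.8 and 45 RPKM with BAY-876 (log2 change 1.45 ± 0.07, adjusted p = 7.7e-11). Among 15 p53 target genes 12 were higher, 1 lower and 2 not called, with a median of 1.28. Cdkn1a, the cell-cycle inhibitor p21, read 17.7, 16.1 and 15.4 RPKM in control, 16, 14.8 and 17 RPKM with FGF8b and 53.7, 55 and 57 RPKM with the inhibitor (log2 change 1.76 ± 0.07, adjusted p = 3.3e-11). Aen rose by 1.55, Ccng1 by 1.49 and Mdm2, the p53 ubiquitin ligase, by 1.45. The 1 lower member was Sesn1 (-0.52). Several p53 target genes, such as Cdkn1a, respond to other factors too. These cells carry the SV40 large T antigen, which binds p53, and the activity of p53 itself was not tested.

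Lysosome and autophagy genes were higher in 14 of 23, lower in 6 and not called in 3, with a median of 0.44. Rragd, a RAG GTPase that TFEB-family factors induce, read 0.417, 0.651 and 0.937 RPKM in control, 2.09, 2.21 and 1.61 RPKM with FGF8b and 19.6, 17.1 and 19.2 RPKM with BAY-876 (log2 change 2.96 ± 0.14, adjusted p = 1.5e-10). The autophagy receptor gene Sqstm1 rose from 265, 243 and 238 to 574, 555 and 604 RPKM (log2 change 1.21 ± 0.06, adjusted p = 1.7e-10) and the proton pump gene Atp6v1h by 1.14. Tfeb itself fell from 1.53, 1.02 and 2.26 to 0.246, 0.0769 and 0.641 RPKM (log2 change -1.37 ± 0.29, adjusted p = 7.9e-04). Of 22 genes of MYC and ribosome biogenesis 15 were higher, 0 lower and 7 not called (median 0.33), after all 22 had risen with FGF8b. Rrp12, Utp20, Nolc1 and Nop2 gained 0.89, 0.74, 0.74 and 0.72, and Myc gained 0.47.

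**Figure D4:**
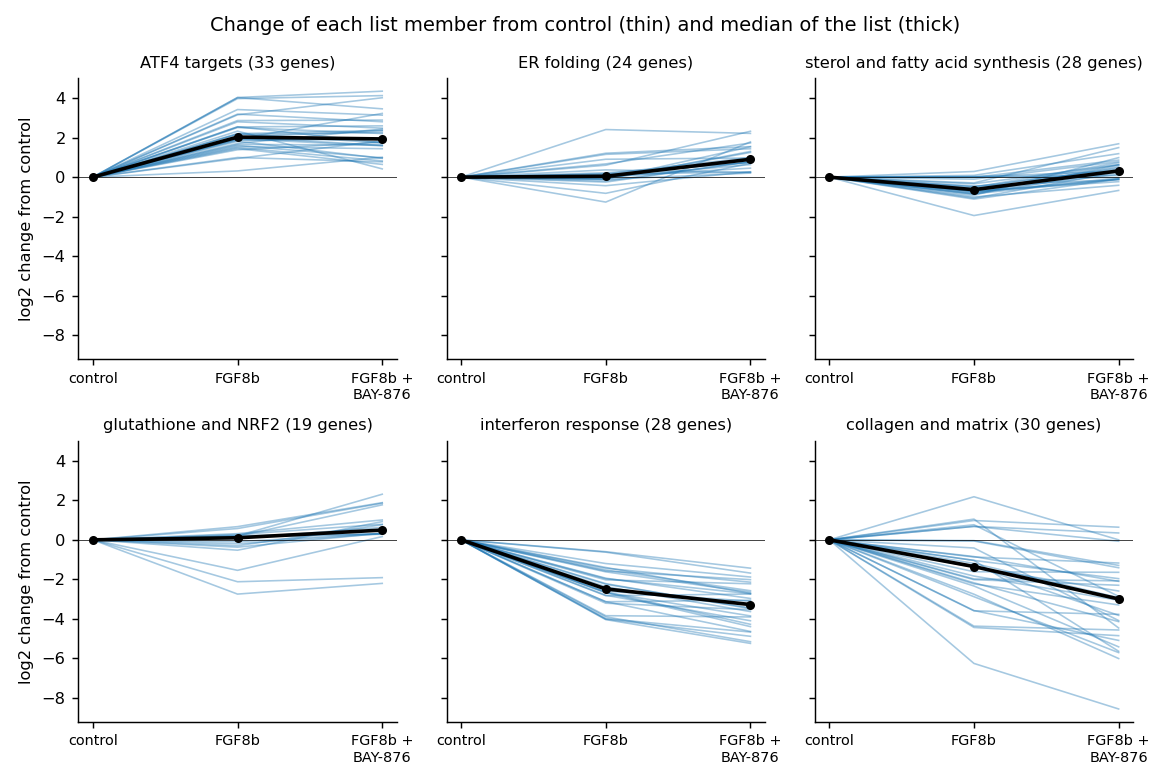
Log2 change from control of each list member with FGF8b and with FGF8b plus BAY-876 (thin lines) and the list median (thick line), for 6 lists of 19 to 33 genes. ATF4 targets have medians of 2.03 with FGF8b and 1.93 with both agents, sterol and ER folding genes turn upward to 0.32 and 0.90, and interferon and matrix genes go further down to -3.28 and -2.99.

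Genes of the extracellular matrix fell more than any other group of the 28 pathway lists by median. Of 30, 26 were lower, 0 higher and 4 not called, with a median of -1.26, on top of an FGF8b median of -1.35. Lum, a collagen-binding proteoglycan that FGF8b had raised from 11.2, 11.3 and 12.9 to 23.1, 27 and 24.6 RPKM, was at 0.0348, 0.0435 and 0.0905 RPKM with BAY-876 (log2 change -5.51 ± 0.10, adjusted p = 2.7e-15). In reads, 3698 stood against 10, a depth-adjusted ratio of 424 (95% interval 231 to 886). Col3a1, a fibrillar collagen, fell from 1167, 1066 and 1342 RPKM in control to 527, 568 and 642 RPKM with FGF8b and 25.3, 20.9 and 23.9 RPKM with BAY-876 (log2 change -4.60 ± 0.10, adjusted p = 1.4e-14). Dcn, decorin, was raised by FGF8b and then lay below control, with 469, 467 and 487 RPKM in control, 793, 824 and 800.0 RPKM with FGF8b and 71.8, 56.4 and 67.4 RPKM with BAY-876 (log2 change -3.62 ± 0.08, adjusted p = 1.4e-14). Col15a1 fell by 3.67, Col6a2 by 3.26, Col1a1 by 3.08 and Tnc, tenascin C, by 2.18. Basement membrane collagens moved less, Col4a1 by -0.33 and Col4a2 by -0.34. Of 19 matrix proteases and inhibitors 12 were lower and 6 higher (median -0.74). Adamts12 fell from 4.44, 4.76 and 5.09 to 0.47, 0.391 and 0.397 RPKM (log2 change -2.52 ± 0.07, adjusted p = 6.2e-13), the plasminogen activator gene Plat by 2.19 and Mmp3 by 2.00, whereas the urokinase receptor gene Plaur rose from 4.78, 4.39 and 4.38 to 18.6, 25.6 and 23.9 RPKM (log2 change 2.20 ± 0.18, adjusted p = 4.9e-08).

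Interferon-stimulated genes, all 28 of which FGF8b had lowered, were lower again in 23, higher in 0 and not called in 5, with a median of -1.03. Ifit1, which binds foreign RNA, read 287, 271 and 285 RPKM in control, 46.5, 43.3 and 40.3 RPKM with FGF8b and 20.6, 8.79 and 11.8 RPKM with BAY-876 (log2 change -1.71 ± 0.19, adjusted p = 1.6e-06). The guanylate-binding protein genes Gbp2 and Gbp3 fell by 1.63 and 1.51, and Usp18, a brake of interferon signalling, by 1.32. For these 4 genes FGF8b plus BAY-876 replicate 1 stood above the other 2 inhibitor libraries, and all inhibitor libraries were below all FGF8b libraries. Chemokines and cytokines were lower in 14 of 20, higher in 1 and not called in 5, with a median of -0.60. Ccl11, eotaxin, read 6.88, 8.87 and 8.56 RPKM with FGF8b and 0.0553, 0.0345 and 0.0479 RPKM with BAY-876 (log2 change -3.97 ± 0.13, adjusted p = 1.9e-12), and Tslp, an alarmin that FGF8b had raised, 4.75, 5.46 and 5.86 RPKM with FGF8b against 1.1, 1.01 and 1.01 RPKM with BAY-876 (log2 change -1.92 ± 0.15, adjusted p = 5.1e-08). The 1 higher member was Il1rl1, the receptor gene of the Il33 product, at 1.42, and 2 were higher with no filter on low values. In the insulin-like growth factor list 5 of 14 were lower and 1 higher, beside 34.8% lower and 22.5% higher over all genes. The list median was -0.07, and 0.02 with trimmed-mean scaling, with Igfbp5 and Igf2 lower by 1.66 and 1.19. A second higher member appeared with a pseudocount of 0.1, either scaling, summed transcripts, or without FGF8b plus BAY-876 replicate 2, control replicate 2 or control replicate 3.

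**Figure D5:**
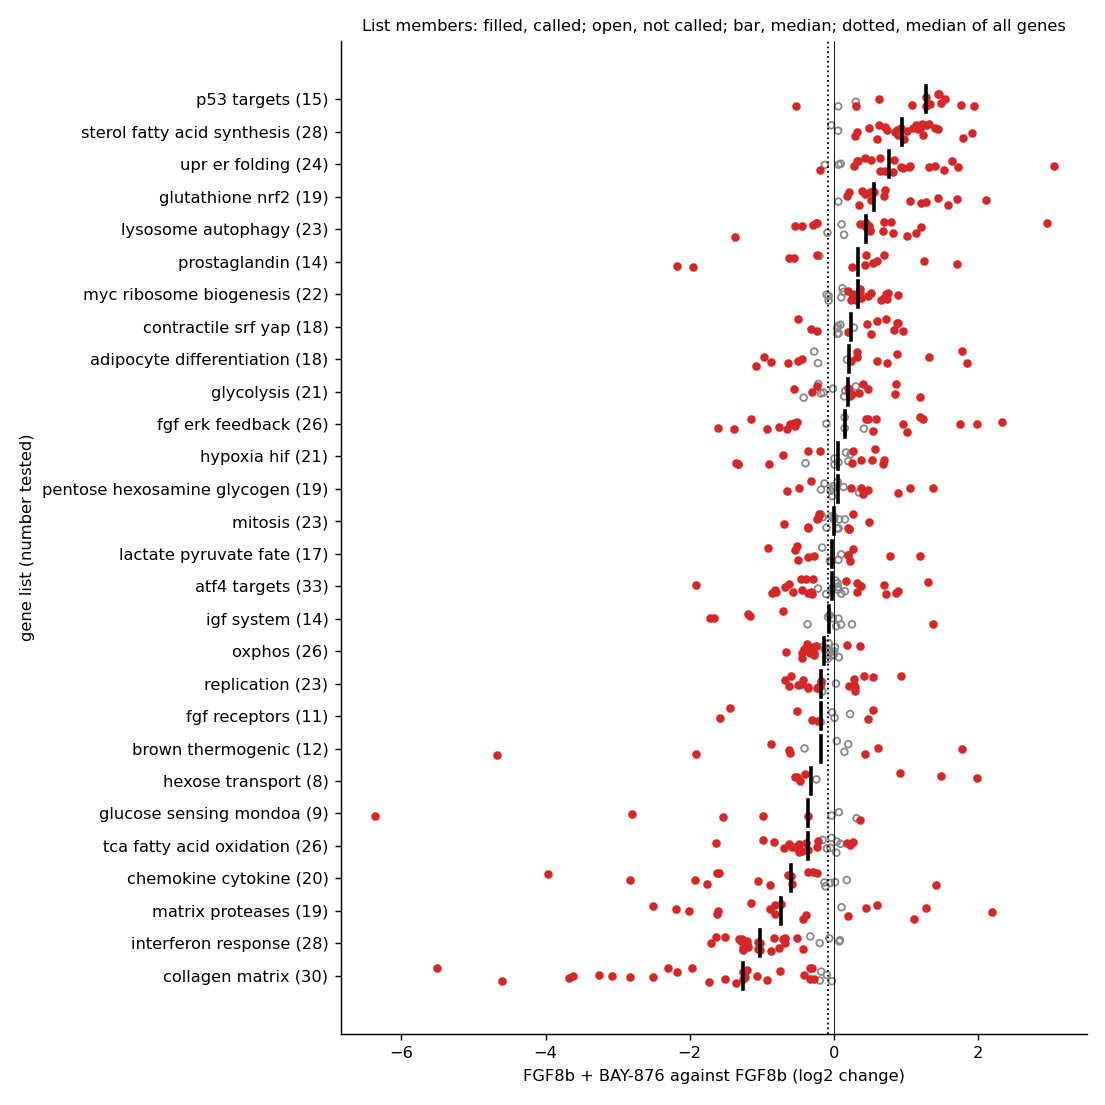
Log2 change with FGF8b plus BAY-876 against FGF8b for each tested member of the 28 pathway lists, ordered by median (thick bar), with called members filled and others open. The p53, sterol and ER folding lists have the highest medians at 1.28, 0.95 and 0.76, the collagen and interferon lists the lowest at -1.26 and -1.03, and the dotted line is the median of all genes at -0.08.

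Thermogenic and adipogenic genes moved in both directions. Only 12 of 23 thermogenic genes were high enough to test. Of these 5 were lower, 3 higher and 4 not called (median -0.18), beside 34.8% lower and 22.5% higher over all genes. With no filter 5 were higher. Beside Ucp1 and Fgf21, the brown fat determinant Ebf2 fell from 12, 12.3 and 13.9 to 6.77, 6.59 and 6.8 RPKM (log2 change -0.87 ± 0.06, adjusted p = 2.0e-08). Ppargc1a, the coactivator of mitochondrial biogenesis, rose from 0.0987, 0.0646 and 0.068 to 1.67, 1.32 and 1.42 RPKM against 0.297, 0.268 and 0.389 RPKM in control (log2 change 1.77 ± 0.10, adjusted p = 1.5e-09), a read ratio of 19.3 (interval 12.2 to 32.4). Pparg, the master regulator of fat cell formation, read 3.93, 3.42 and 3.9 RPKM in control, 3.16, 2.22 and 2.66 RPKM with FGF8b and 4.39, 4.45 and 3.95 RPKM with BAY-876 (log2 change 0.59 ± 0.11, adjusted p = 2.6e-04). Of 18 tested adipocyte genes 9 were higher and 6 lower (median 0.21), with the droplet coat gene Plin4 higher by 1.77, Klf15 by 1.31, Cebpd lower by 1.07 and Lpl, lipoprotein lipase, by 0.97. Adipoq, Cidea and Plin1, which mark mature fat cells, were at 0 in all inhibitor libraries, and Cidea and Plin1 also in all control libraries. Only 2 of the 10 mature fat cell markers reached a mean of 0.5 RPKM with FGF8b plus BAY-876, and likewise with FGF8b and in control. Progenitor markers were lower in 8 of 12 tested and higher in 2 (median -0.87), with Dlk1 lower by 2.56, Ly6a by 1.48, Pdgfra by 0.87 and Cd44 higher by 1.06.

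Prostaglandin genes were higher in 8 of 14 and lower in 5 (median 0.34), beside 22.5% higher and 34.8% lower over all genes. Ptgs2, cyclooxygenase 2, read 2.81, 3.02 and 3.35 RPKM in control, 8.97, 8.14 and 7.98 RPKM with FGF8b and 21.4, 20.4 and 19.7 RPKM with the inhibitor, 3 separate levels (log2 change 1.24 ± 0.09, adjusted p = 1.7e-08). The exporter gene Abcc4 rose by 1.70, while Ptgis, prostacyclin synthase, fell from 27.9, 29 and 31.5 to 5.9, 6.36 and 6.16 RPKM (log2 change -2.17 ± 0.09, adjusted p = 3.0e-11) and the receptor gene Ptgfr by 1.96.

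Among mitochondrial genes more were lower than higher, as was so over all genes (34.8% lower, 22.5% higher, median -0.08). Citrate cycle and fatty acid oxidation genes were lower in 16 of 26 and higher in 3 (median -0.36), led by Acadvl, the very long chain acyl-CoA dehydrogenase gene, which fell from 31.4, 32.7 and 31.7 to 9.84, 10.2 and 9.67 RPKM (log2 change -1.64 ± 0.06, adjusted p = 2.9e-12). Etfb fell by 0.98, Decr1 by 0.83 and Hadha by 0.69. Respiratory chain subunits were lower in 12 of 26 and higher in 2, with 12 not called (median -0.14, and -0.04 with trimmed-mean scaling), with Ndufv2 at -0.67 and Atp5c1 at -0.45. The 2 higher ones were Cycs and Cox5a, and 1 was left without FGF8b plus BAY-876 replicate 1 or 3 or FGF8b replicate 2 or 3. Hypoxia genes split into 7 higher, 7 lower and 7 not called (median 0.06), with Adm, adrenomedullin, lower by 1.36, Hif1a by 0.91 and Car9 by 1.33, and Vegfa higher by 0.57.

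Replication genes were lower in 13 of 23 and higher in 8 (median -0.18), and lower in 9 with trimmed-mean scaling. The shares over all genes were 34.8% lower and 22.5% higher. Mcm6, Prim1 and Gins2 fell by 0.60, 0.68 and 0.62. Mitotic genes were lower in 7, higher in 5 and not called in 11 of 23, with a median of 0.00. The 7 became 3 with either scaling and 4 without FGF8b plus BAY-876 replicate 2 or FGF8b replicate 3, and the 5 became 3 without FGF8b plus BAY-876 replicate 1 or FGF8b replicate 1. Nusap1, a spindle protein gene, was lower by 0.69 and Cdc20 higher by 0.49. Contractile and SRF-YAP genes, mostly lowered by FGF8b, were higher in 9 of 18 and lower in 3 (median 0.24), with Tagln, transgelin, at 9.64, 9.04 and 8.83 RPKM with FGF8b and 15.8, 25.3 and 15.4 RPKM with BAY-876 (log2 change 0.96 ± 0.13, adjusted p = 1.6e-05), and Acta2 and Cyr61 higher by 0.89 and 0.88.

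Outside the lists, the largest rises included genes at low level with FGF8b alone. Ppef1, a calcium-binding phosphatase gene, read 0.426, 0.421 and 0.622 RPKM in control, 0.84, 0.259 and 0.271 RPKM with FGF8b and 12, 10.6 and 10.8 RPKM with BAY-876 (log2 change 3.66 ± 0.19, adjusted p = 4.6e-10), and Cd24a, a glycosylated surface protein gene, 0.531, 0.599 and 0.447 RPKM with FGF8b against 11.5, 11.7 and 10.3 RPKM with BAY-876 (log2 change 3.51 ± 0.12, adjusted p = 3.5e-12). The proliferin genes Prl2c2, Prl2c3, Prl2c5 and Prl2c1 rose by 3.43, 3.44, 3.40 and 3.07, with Prl2c2 at 15.8, 15.9 and 18.1 RPKM in control, 50.7, 58.2 and 56.3 RPKM with FGF8b and 668, 544 and 588 RPKM with BAY-876. These copies are nearly identical, so the share of each is uncertain. Nptx1, a neuronal pentraxin gene, rose by 3.34, Itgb7, an integrin chain gene, by 2.95, Avil, advillin, by 2.91 and Sh2d6 by 2.78. Serpinb6c varied between libraries of a group, 0.0969, 1.88 and 0.213 RPKM with FGF8b and 7.47, 8 and 3.79 RPKM with the inhibitor (log2 change 2.72 ± 0.57, adjusted p = 8.1e-04). Among the largest falls, the imprinted RNA H19 read 204, 189 and 214 RPKM in control, 81, 92.4 and 114 RPKM with FGF8b and 2.53, 1.83 and 2.63 RPKM with BAY-876 (log2 change -5.09 ± 0.12, adjusted p = 4.8e-14). C1s, a complement protease gene, read 328, 319 and 374 RPKM in control, 29.7, 30.2 and 34.2 RPKM with FGF8b and 2.29, 1.66 and 2.58 RPKM with BAY-876 (log2 change -3.59 ± 0.11, adjusted p = 1.1e-12). Slc1a3, a glutamate carrier gene, Lrrc17 and Ifi27l2a fell by 3.37, 3.34 and 3.21, and the matrix genes Thbs4 and Cilp by 3.31 and 3.27.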

How the data were processed

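RNA of cultured cells was sequenced after a TruSeq RNA v2 preparation, per the labels' protocols, a kit that does not mark strand. The authors deposited 1 table of RPKM values per transcript for 15 libraries in 5 groups, written with decimal commas. The submitters' processing notes name CASAVA and bcl2fastq. Aligner, genome build and annotation: not given in the sources used here. One transcript per symbol was kept, that with the highest mean, and 23172 lines without a symbol were left out. Of the symbols tested, 12 had been turned into dates and are not named.

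Levels were log2(RPKM + 0.5). The filter asked for 0.5 RPKM or more in 3 or more libraries and left 13869 genes. limma 3.58.1 in R 4.3.3 fitted all groups together, with an intensity trend, 10 residual degrees of freedom and Benjamini-Hochberg adjustment over all genes. The fit was also run on simulated data in which few genes changed, in the FGF8b plus BAY-876 group only. That setting differs from these data, where 57.3% of genes were called, so it does not check the fit or the scaling here. Low RPKM values were whole multiples of 1 read in 94.1 to 95.0% of cases (tolerance 0.05). Whole reads were recovered for 13852 genes (99.9%, tolerance 0.02) and used for exact 95% intervals, which cover counting error only, and for voom. The transcript length inferred for this equalled the annotated length in 90.8% of 3471 transcripts compared. Read counts of the others may be off in scale.

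Named genes were the 15 largest changes per direction without overlap between groups, the 4 largest FGF8b changes per class and direction, followed genes and up to 4 members per list. Other list members named were picked after their values were seen. Members and all 35 lists were chosen with earlier results of these data known. Alternatives were other pseudocounts, filters and scalings, the compared groups alone, the replicate number as a block, summed transcripts, voom and leaving out each library. Promoters are from RefSeq (GRCm38.p6). Samples with Fgf1 were used only in the shared fit. Some items are not reported here.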

Additional observations from a re-analysis of the deposited data

How the results depend on the processing

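The number of genes called in FGF8b plus BAY-876 against FGF8b ranged from 7217 to 8066 when single libraries were left out, and other settings gave 7575 with a filter of 1 RPKM, 7998 with voom and 8380 of 22810 with no filter. FGF8b changes that BAY-876 partly or fully lost or overturned numbered 504, with 385 under a pseudocount of 1, 658 under voom and 456 to 520 without single libraries. All 95 alternative values of the 5 counts that answer a comparison stayed within 1.5 times. Of 3267 alternative values for named genes, 3250 kept direction and side of the threshold, 8 gained a call, 6 lost one and 3 turned. Those that turned were Atf4, at 0.0646 with trimmed-mean scaling and 0.0264 with median scaling, and Mest, at -0.0591 with summed transcripts, and none was called. The cause was not tested. Same-numbered replicates deviated together in 11 of 30 pairs (correlation above 0.1). Pairs with different numbers were not counted, so this cannot show whether the numbers mark pairs. The main fit did not take them as pairs. With the replicate number as a block 8026 genes were called in FGF8b plus BAY-876 against FGF8b, 9016 in FGF8b against control, 10155 in FGF8b plus BAY-876 against control and 9195 in FGF9 against control, and 508 FGF8b changes were lost in part or whole. Depth limits genes near 0: Clec3b, with 3 reads in the FGF8b libraries, could show no further fall.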

Other observations

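The genes below were chosen after their values were seen. Several genes were not called in FGF8b against control and changed by at least 1 on the log2 scale when BAY-876 was added. Of 4938 genes not called in FGF8b against control, 115 were higher by that size (2.33%) and 93 lower (1.88%). The shares over all genes were larger, at 3.04% higher and 3.84% lower. The set was chosen with the same FGF8b libraries that the comparison uses. Mgp, matrix Gla protein, an inhibitor of calcification, read 172, 184 and 217 RPKM with FGF8b and 36.7, 46.1 and 38.3 RPKM with BAY-876 (log2 change -2.23 ± 0.10, adjusted p = 5.6e-11). Bgn, biglycan, fell by 1.26. Ctsk, the collagen-degrading protease cathepsin K, moved the other way, from 34.5, 35.3 and 29.3 to 152, 135 and 139 RPKM (log2 change 2.09 ± 0.09, adjusted p = 3.6e-11). No library of one group overlapped the other for Mgp or Ctsk. Outside this set, Areg, an EGF receptor ligand, read 0.0752, 0.111 and 0.07 RPKM in control, rose to 15.4, 16.6 and 15.8 RPKM with FGF8b and read 2.82, 2.51 and 2.71 RPKM with BAY-876 (log2 change -2.37 ± 0.09, adjusted p = 1.5e-11). Adjusted p-values are from limma.

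Gene families were counted beside all genes, of which 22.5% were higher and 34.8% lower. Of 322 tested zinc finger genes with the symbol stem Zfp, 31 were higher (9.63%) and 143 lower (44.4%), with a median of -0.19, and with trimmed-mean scaling 49 were higher and 114 lower. Of 12 Kruppel-like factor genes 9 were higher and 2 lower, with a median of 0.47. Of 99 ribosomal protein genes 32 were higher and 11 lower, with a median of 0.14, and with trimmed-mean scaling 56 were higher and 7 lower, with a median of 0.24. Among 200 solute carrier genes 73 were higher and 51 lower, with a median of 0.07, and with trimmed-mean scaling 88 were higher and 39 lower. The Kruppel-like factor counts were the same with that scaling, which gave 4048 higher and 3885 lower of all genes. These families were picked after their values were seen and have no test.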
